A study of Homo sapiens with 41 samples.

Results

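ATF4, ATF3, DDIT3, PPP1R15A, PPP1R15B, ASNS, CHAC1, TRIB3, SESN2 and DDIT4 are genes of the integrated stress response, the program by which cells lower protein synthesis and remake their amino acid supply. The 10 genes were named by symbol and looked up among the 58721 genes of the count table; all 10 were found, and all 10 were among the 21629 genes with enough reads to be tested. The counts come from T98G, an established line of human glioblastoma cells, which leave the cell cycle in serum-free medium. Every culture, the 0 min culture included, was kept in serum-free medium for 72 h, and 20% fetal calf serum was then given. Ribosomal RNA-depleted total RNA was sequenced at 0 min, before serum, and at every 10 min to 400 min. Cells were seeded separately for each of the 41 time points, each has 1 library, and so no time point has a replicate. Serum is the only treatment the labels name, no agent was added to provoke stress, and a culture given fresh medium without serum was not analysed here.

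In the integrated stress response, several kinases each sense a different stress and phosphorylate the translation initiation factor eIF2. Bulk translation then falls, while the mRNA of the transcription factor ATF4 is translated better. ATF4 switches on genes for amino acid uptake and synthesis, and PPP1R15A returns the phosphatase PP1 to eIF2 and so ends the response. ATF4 is controlled in good part at the level of translation, and its protein was not measured here. Growth factors that act through the kinase complex mTORC1 are also known to raise ATF4 without stress, and ATF3 is known as an immediate early gene of serum as well as a stress gene.

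Libraries held 18206982 counts (20 min) to 64948114 counts (70 min), with a median of 41773419, and all levels below are normalized counts, that is, counts over each library's size factor (median of ratios). Over all genes, the libraries at 20, 90, 250 and 300 min lay farthest from the fitted curves. For the 10 genes, the libraries at 230 and 310 min lay above the curve for all 10 genes, by a median of 0.13 and 0.05 on the log2 scale, and the library at 270 min lay below it for all 10, with a median departure of -0.09. These libraries are single cultures, and whether such shared departures are biological or technical was not tested. The mesenchymal and glioma markers VIM, CD44 and TNC were abundant (VIM, 34424 to 62027 normalized counts), while NES was low (21.2 to 61.7) and the glial markers GFAP, S100B and SOX2 never exceeded 6.23, 4.15 and 2.25. OLIG2 held 8.30 to 64.99 normalized counts and was higher at 240 min by a log2 change of 2.30 ± 0.35 (edgeR adjusted p = 4.3e-07). Markers of blood, epithelial, endothelial, neuronal and liver cells stayed at or below 27.5 normalized counts. In bulk RNA, fewer cells that express a gene and less RNA per cell cannot be told apart.

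The promoters of the 10 genes, 250 bases before to 50 after each RefSeq start on GRCh38.p14, were searched on both strands for letters that factors of this pathway are known to bind. The core of the C/EBP-ATF response element, TGATGNAA, which ATF4 binds with a C/EBP partner, was found near a start of 4 of the 10 genes, which have 16 windows, and of 4.46% of the 27305 genes with a window (3.62% of all 35116 windows). These stretches are shown because they hold the letters through which ATF4 is known to act, on genes that rose late (ASNS, CHAC1), slowly (PPP1R15B) and early (ATF3). Capitals mark the match, and each line reads 5′ to 3′ on the strand of the gene.
ASNS, chr7:97872458-97872487, minus strand, match from 68 bases before the start: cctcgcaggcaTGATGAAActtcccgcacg
CHAC1, chr15:40953251-40953280, plus strand, match reversed, from 209 bases before the start: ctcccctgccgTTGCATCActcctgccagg
PPP1R15B, chr1:204412026-204412055, minus strand, match from 227 bases before the start: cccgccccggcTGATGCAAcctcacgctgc
ATF3, chr1:212565205-212565234, plus strand, match from 191 bases before its upstream start: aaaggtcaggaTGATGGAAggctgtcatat

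The cyclic AMP response element TGACGTCA, which ATF and CREB proteins bind as dimers, was near a start of 2.25% of genes (1.85% of windows) and, of the 10 genes, in PPP1R15A alone. The pattern TGANTCA, searched with any base at N, was near a start of 9.37% of genes (7.71% of windows) and, of the 10 genes, in DDIT3 alone. It covers the AP-1 element bound by FOS and JUN dimers but is looser, so these shares are not of that element alone. The matches in PPP1R15A and DDIT3 are shown because PPP1R15A rose, and DDIT3 fell, within 60 min. ATF3, ATF4 and PPP1R15B, also higher at 60 min, and DDIT4, also lower, had neither match in these windows.
PPP1R15A, chr19:48872352-48872381, plus strand, match from 58 bases before the start: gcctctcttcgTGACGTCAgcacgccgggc
DDIT3, chr12:57520738-57520766, minus strand, match from 238 bases before a start: gcgcgcgcgcaTGACTCAcccacctcctc

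The stretches of ASNS, CHAC1 and PPP1R15A overlap an exon of the same gene in GENCODE release 44. That of PPP1R15B overlaps an exon of ENSG00000288934 on the other strand, and that of DDIT3 overlaps an exon of MBD6 on the other strand. None of the 3 motifs was found in these windows for ATF4, TRIB3, SESN2 or DDIT4. A match of letters does not show that a factor binds, and the absence of a match covers only these windows.

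The 10 genes changed at different times. ATF3 and PPP1R15A were up within 30 min, PPP1R15B rose to a plateau that it held, and ATF4 climbed gradually from the first hour. CHAC1, SESN2, DDIT4 and ASNS, which are targets of ATF4, rose between 120 and 240 min, when ATF4 was still rising. ATF3 fell through that interval. CHAC1 had also risen from 60 to 120 min, by a log2 change of 2.01 ± 0.16 (edgeR adjusted p = 4.6e-14). DDIT3 and TRIB3, which ATF4 also induces in stress, rose from 120 to 240 min too, but at 240 min neither was called against 0 min. DDIT3 and DDIT4 first went down, to their lowest libraries at 130 and 100 min, before they rose. Each statement of change rests on edgeR's quasi-likelihood test of a smooth curve through all 41 libraries, called at a Benjamini-Hochberg adjusted p below 0.01 over the 21629 genes.

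**Figure D1:**
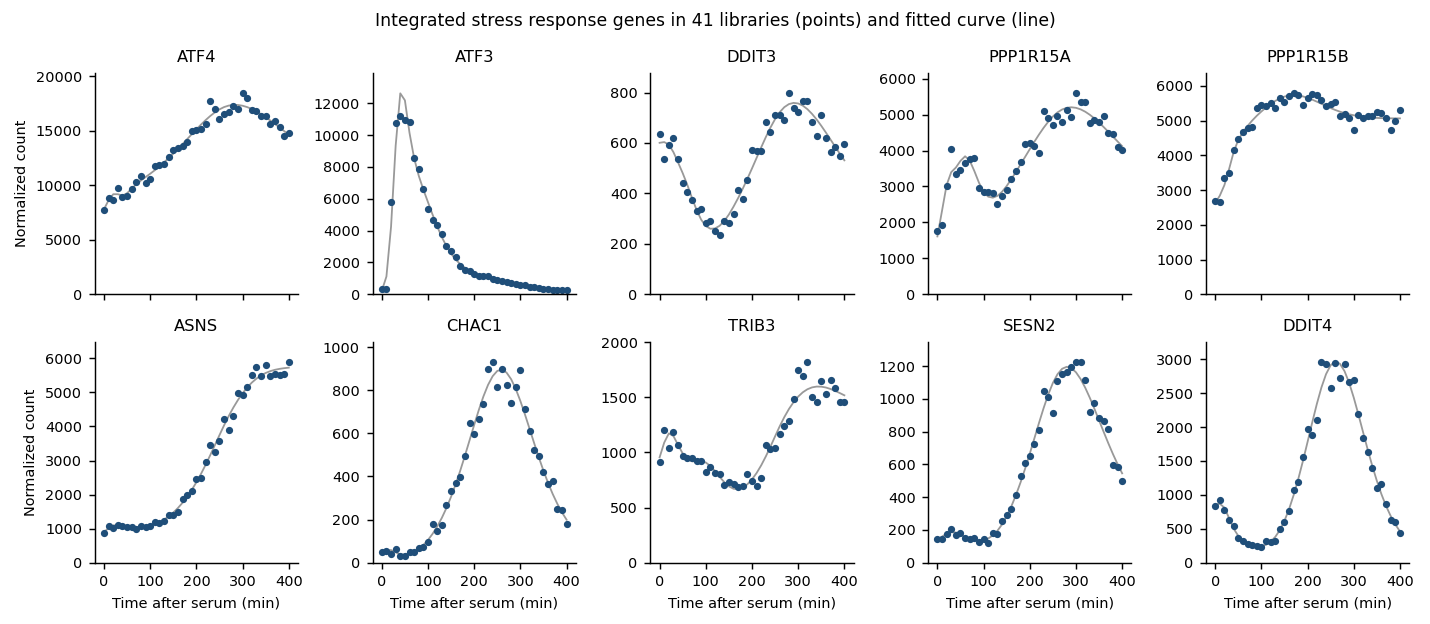
Normalized count (vertical axis, from 0, a scale of its own in each panel) against time after serum in min for the 10 genes; points are the 41 libraries and the line is the fitted curve. ATF3 peaks at 11194 at 40 min and CHAC1 at 934 at 240 min, and the ATF3 curve passes above its 10 min library, 1115 fitted against 325 observed.

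At 30 min, 3 of the 10 genes were higher than at 0 min, where 1.71% of all tested genes were, and 0 were lower (by edgeR at an adjusted p below 0.01; all genes, 0.342%). At 60 min, 4 were higher and 2 lower, against 5.15% and 1.23% of all genes. At 120 min, 6 were higher and 2 lower, against 13.6% and 6.75%. At 240 min, 8 were higher and 0 lower, against 21.6% and 18.5%, and the uncalled genes were DDIT3 and TRIB3. At 400 min, 7 were higher and 1 lower, against 24.2% and 22.4%.

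Every change against 0 min rests on the 0 min library. Without it the curve is extrapolated to 0 min, and 3 of the 10 genes were called higher at 120 min in place of 6. The calls lost were those of PPP1R15B at 30 min (0.73, edgeR adjusted p = 0.023), ATF4 at 60 and 120 min (0.26 and 0.54), ASNS and CHAC1 at 120 min (0.17 and 2.25), DDIT3 at 60 and 120 min (0.18 and -0.55), and TRIB3 and CHAC1 at 400 min (0.24 and 2.499). For ATF3 the log2 change extrapolated in this way was 10.24 at 60 min, and that of PPP1R15A was 2.19. The call of DDIT3 at 60 min was also lost without the 60 min library (-0.43) or the 70 min library (-0.45). Scaling also mattered. Spike-in size factors moved the median log2 change of all genes at 60 min from 0.01 to -0.22 and that from 60 to 120 min to 0.22, and left 1, 2 and 3 of the 10 genes higher at 30, 60 and 120 min. Of all genes called at 60 min, 80.7% were higher with the main size factors and 67.9% with spike-ins; from 60 to 120 min these shares were 68.9% and 92.8%, and from 240 to 400 min 50.6% and 32.0%.

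Between neighbouring times, 4 of the genes rose and 3 fell from 60 to 120 min, against 11.1% and 5.03% of all genes. From 120 to 240 min, 8 rose and 1 fell, against 18% and 18.1%, and the gene that fell was ATF3. From 240 to 400 min, 2 rose and 7 fell, against 14.8% and 14.5%; the 2 that still rose were ASNS and TRIB3. The median log2 change of the 10 genes was 1.64 at 240 min against 0 min, where that of all tested genes was -0.0019. All 10 changed over the whole course, as did 75.5% of tested genes, and all 10 passed the Ljung–Box test of autocorrelation at lag 1, as did 60.9%.

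**Figure D2:**
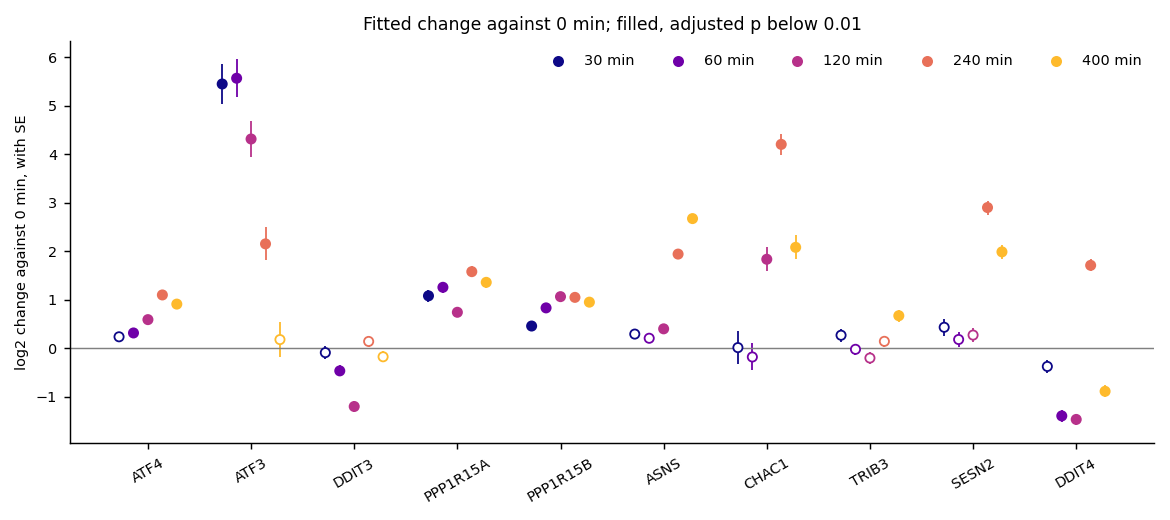
Fitted log2 change against 0 min (vertical axis) of each gene at 30, 60, 120, 240 and 400 min, with bars of 1 SE; filled points have an edgeR adjusted p below 0.01. ATF3 is highest at 30 and 60 min, CHAC1, SESN2 and DDIT4 at 240 min, and ASNS and TRIB3 at 400 min.

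ATF4 (chromosome 22, 39519695 to 39522683), the transcription factor at the center of the response, had the most abundant mRNA of the 10 per length of exon at every stage. Its normalized count was 7775 at 0 min and 8852 at 10 min, and the libraries at 50 to 70 min held 9059 to 10334. Those at 150 to 180 min held 13214 to 13986 and those at 290 to 340 min held 16360 to 18452. These windows did not overlap, and each was higher than the window before it. The fitted log2 change was 0.23 ± 0.07 (SE) at 30 min, which was not called (edgeR adjusted p = 0.0300), then 0.31 ± 0.06 at 60 min (adjusted p = 9.1e-05) and 1.10 ± 0.06 at 240 min (adjusted p = 6.9e-21), a 2.14-fold rise. From 240 to 400 min it fell by 0.19 ± 0.04 on the log2 scale (adjusted p = 5.3e-05), to 14826 at 400 min. With spike-in size factors the 60 min change was 0.08 and the late fall -0.19 (adjusted p = 0.34), and with windows of libraries they were 0.22 and -0.12 (adjusted p = 0.039), none of them called. Pseudogenes share sequence with ATF4, and multi-mapping reads were counted everywhere, but the 4 named copies held means of at most 232 counts against 14447 for ATF4.

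ATF3 (chromosome 1, 212565334 to 212620777), a repressor and activator of the same bZIP class, gave the largest and fastest response of the 10. The libraries at 0 and 10 min held 321 and 325 normalized counts, followed by 5778 at 20 min, 10776 at 30 min and 11194 at 40 min. The 60 min library still held 10802 and the 120 min library 4369. By 240 min the level was 981, and the last library held 271, below both starting libraries. The mean of the libraries at 50 to 70 min was 31.3 times that of the 0 and 10 min libraries, and the smooth curve gave a log2 change of 5.56 ± 0.40 at 60 min (edgeR adjusted p = 1.8e-13). The curve overstates folds against 0 min for this gene, since it puts 214 at 0 min where the library held 321. With windows of neighboring libraries in place of the curve, the log2 changes at 30, 60, 120 and 240 min were 4.84, 4.97, 3.62 and 1.37, each still called. At 240 min the smooth fit gave 2.15 ± 0.34 (adjusted p = 2.2e-06), and a curve with evenly spaced knots gave 0.37, not called. At 400 min the change was 0.18 ± 0.37 (adjusted p = 0.71); without the 10 min library it was -0.39 (adjusted p = 0.0020), and without the 0 min library, by extrapolation, 4.93 (adjusted p = 7.1e-16), so its sign at 400 min depends on these libraries. From the 40 min library on, the decline had an apparent half-life of 49.0 min (95% interval 46.3 to 52.1, 19 libraries). This half-life is of the level, since synthesis was not measured separately, and the interval treats libraries as independent.

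DDIT3 (chromosome 12, 57516588 to 57521737) encodes CHOP, a bZIP factor that ATF4 induces in lasting stress and that promotes cell death. It did not rise above its starting level by the test at any of the 5 times. Its normalized counts were 634 and 536 at 0 and 10 min and went down to 236 to 292 in the 110 to 140 min libraries. They came to 645 to 797 at 240 to 280 min, above both starting libraries. The fitted curve was highest at 290 min, at 759 against 601 at 0 min, and 290 min was not among the 5 tested times. The low libraries did not overlap with the starting libraries, whereas each late library at 350 to 400 min, 548 to 710, lay near them. DDIT3 fell by 0.47 ± 0.11 on the log2 scale at 60 min (edgeR adjusted p = 0.0033) and by 1.20 ± 0.11 at 120 min (adjusted p = 1.7e-12); with spike-in size factors the 60 min change was -0.71 and was not called (adjusted p = 0.079). It then rose by 1.341 ± 0.07 from 120 to 240 min (adjusted p = 1.3e-21) and at 240 min stood 0.14 ± 0.11 from 0 min (adjusted p = 0.29). Of its exon bases, 27.2% overlap MARS1 on the opposite strand, and 105 bases are shared with ENSG00000285133 on the same strand, so a part of its reads could be counted for that gene too. The ratio of DDIT3 to ATF4 counts within a library, which needs no size factor, had its highest log2 value, -3.62, at 0 min and its lowest, -5.67, at 130 min. At 290 to 340 min its median was -4.59, below both starting libraries.

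PPP1R15A (chromosome 19, 48872212 to 48876059) encodes GADD34, the inducible partner of PP1 that removes phosphate from eIF2. It had 2 rises. Its normalized counts were 1748 and 1941 at 0 and 10 min, 3005 at 20 min and 4034 at 30 min, stayed at 3359 to 3780 from 40 to 80 min, and were 2507 to 2841 at 110 to 140 min. They then climbed to 4707 to 5115 at 240 to 280 min and to 5591 at 300 min. The fitted log2 change was 1.08 ± 0.12 at 30 min (edgeR adjusted p = 7.4e-09) and 1.25 ± 0.11 at 60 min. It fell by 0.51 ± 0.08 from 60 to 120 min (adjusted p = 7.3e-07) and rose by 0.84 ± 0.06 from 120 to 240 min (adjusted p = 1.7e-16). A fall of 0.22 ± 0.07 from 240 to 400 min (adjusted p = 0.0072) was no longer called in 7 of the 41 fits that each left out 1 library. Nor was it called with spike-in size factors (-0.22, edgeR adjusted p = 0.30) or windows of libraries (-0.13, adjusted p = 0.19). The call was also lost with evenly spaced knots, every second time point, limma or no filter, and without the 4 libraries farthest from the curves. With spike-in size factors the early changes were 0.92 at 30 min and -0.29 from 60 to 120 min, neither called, and the rise from 120 to 240 min was 0.88, called.

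PPP1R15B (chromosome 1, 204396492 to 204411887) encodes CReP, the PP1 partner usually described as constitutive. Its mRNA rose as well, more slowly and to a plateau. Normalized counts were 2681 and 2670 at 0 and 10 min, 4467 to 4785 at 50 to 70 min and 5549 to 5786 at 150 to 180 min, and they were still 4716 to 5298 at 350 to 400 min. All libraries from 20 min on were above both starting libraries. The log2 change was 0.46 ± 0.07 at 30 min (edgeR adjusted p = 4.5e-06), 1.06 ± 0.06 at 120 min (adjusted p = 3.1e-19) and 0.95 ± 0.06 at 400 min. The 30 min change was not called with spike-in size factors (0.33, adjusted p = 0.92) or total-count size factors (0.38, adjusted p = 0.011), nor was the 60 min change with spike-ins (0.59, adjusted p = 0.20). Between 120 and 240 min it was -0.02 ± 0.03 (adjusted p = 0.73), where PPP1R15A rose.

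The log2 ratio of PPP1R15A to PPP1R15B counts started at -0.62 and -0.46, was 0.21 at 30 min, and went down to -1.10 at 130 min. It came back to 0.24 at 300 min and was above 0 in 4 of the 41 libraries. Counts are not corrected for length, and the exons of PPP1R15B span 9.34 kb against 3.43 kb for PPP1R15A, so per kb PPP1R15A was the more abundant of the pair at the start (509 to 565 normalized counts per kb against 286 to 287). The ratio of ATF3 to ATF4 rose from -4.77 in the 10 min library to 0.32 at 40 min and reached its lowest value, -5.83, at 380 min, below the starting libraries.

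**Figure D3:**
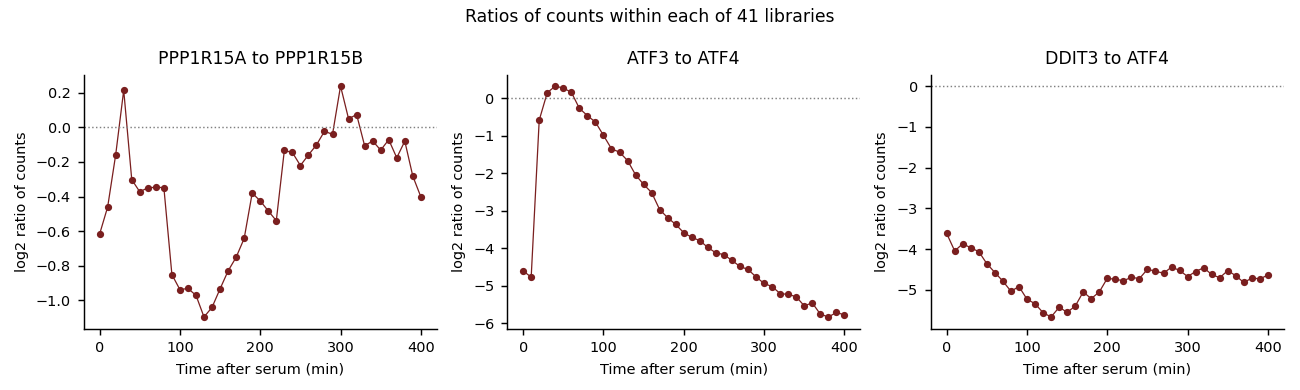
Log2 ratio of raw counts (vertical axis) of PPP1R15A to PPP1R15B, ATF3 to ATF4 and DDIT3 to ATF4 within each of the 41 libraries, against time after serum in min; the dotted line marks equal counts. PPP1R15A to PPP1R15B has its lowest point, -1.10, at 130 min between high points at 30 and 300 min.

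ASNS (chromosome 7, 97851677 to 97872542), asparagine synthetase, is a standard reporter of ATF4 activity, and its level was still at its highest in the last library. Its normalized counts were 881 and 1068 at 0 and 10 min and 988 to 1111 at 20 to 100 min, an overlapping range. They were 1160 to 1402 at 110 to 140 min, 3264 to 4314 at 240 to 280 min and 5490 to 5908 at 350 to 400 min, with the highest library at 400 min. The log2 change was 0.40 ± 0.08 at 120 min (edgeR adjusted p = 6.2e-05), which was not called with windows of libraries (0.36) or spike-in size factors (0.40). It was 1.94 ± 0.08 at 240 min (adjusted p = 1.1e-24) and 2.67 ± 0.09 at 400 min (adjusted p = 1.7e-28), a 6.36-fold rise. The small change from 60 to 120 min, 0.19 ± 0.06 (adjusted p = 0.0082), was not called in 9 of the 41 fits without 1 library. A noncoding gene on the same strand, ENSG00000284707, covers 49.3% of the exon bases of ASNS and has nearly the same mean count, 3085 against 3098, so the reads of the 2 genes cannot be told apart.

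CHAC1 (chromosome 15, 40952962 to 40956512), which degrades glutathione, is a target of ATF4 and ATF3 in stress. It gave the largest late response. Its normalized counts were 29.5 to 64.8 in every library to 60 min, 147 to 265 at 110 to 140 min, 741 to 934 at 240 to 280 min, and 178 at 400 min. The ranges of these first 3 windows did not overlap. The log2 change was -0.18 ± 0.28 at 60 min (edgeR adjusted p = 0.80), 1.83 ± 0.24 at 120 min (adjusted p = 4.5e-08) and 4.20 ± 0.22 at 240 min (adjusted p = 1.7e-20), an 18.4-fold rise. From 240 to 400 min it fell by 2.12 ± 0.10 (adjusted p = 9.7e-21), with an apparent half-life of 67.5 min (95% interval 56.3 to 84.3, 16 libraries). That fit starts after the 240 min library, although the level was still 895 at 300 min, so it mixes a plateau with the later fall.

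TRIB3 (chromosome 20, 362835 to 397559), a pseudokinase that ATF4 and CHOP induce and that restrains ATF4, had the narrowest range of level among the targets of ATF4, 2.65-fold between its lowest and highest libraries. Its normalized counts were 917 and 1207 at 0 and 10 min. They were 689 to 732 at 150 to 180 min, below both, and 1463 to 1826 at 290 to 340 min, above both. The log2 change from 0 min was called at 400 min alone (0.67 ± 0.12, edgeR adjusted p = 1.1e-05). TRIB3 rose by 0.34 ± 0.06 from 120 to 240 min (adjusted p = 1.8e-05) and by 0.53 ± 0.07 from 240 to 400 min (adjusted p = 9.7e-08). With windows of libraries, the 120 min change was -0.41 and was called. It was also called with evenly spaced knots (-0.42) and with a curve of 5 df (-0.52). The main smooth curve gave -0.20 ± 0.11 (edgeR adjusted p = 0.20), not called.

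SESN2 (chromosome 1, 28259518 to 28282491) encodes Sestrin 2, a leucine sensor that holds back mTORC1. The normalized count was 144 at both 0 and 10 min and 120 to 207 in the libraries from 20 to 130 min. They were 290 to 531 at 150 to 180 min, 917 to 1167 at 240 to 280 min and 1228 at 300 min, and 501 at 400 min. The log2 change was 0.27 ± 0.15 at 120 min (edgeR adjusted p = 0.20) and 2.90 ± 0.14 at 240 min (adjusted p = 6.6e-22), a 7.45-fold rise. It fell by 0.91 ± 0.07 from 240 to 400 min (adjusted p = 8.0e-14). The apparent half-life was 74.9 min (95% interval 60.8 to 97.4, 10 libraries).

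DDIT4 (chromosome 10, 72273919 to 72276036) encodes REDD1, another inhibitor of mTORC1. It fell, rose and fell again. The starting libraries held 829 and 926 normalized counts, followed by 545 at 40 min and 225 at 100 min. They then climbed from 303 at 120 min to 2965 at 230 min, stayed at 2582 to 2943 through 280 min and were 443 at 400 min. The lowest and highest libraries differed 13.2-fold, more than for any other of the 10 except ATF3 and CHAC1. The log2 change was -1.40 ± 0.12 at 60 min (edgeR adjusted p = 2.4e-12), -1.47 ± 0.12 at 120 min and 1.71 ± 0.13 at 240 min (adjusted p = 1.6e-15). DDIT4 rose by 3.18 ± 0.07 from 120 to 240 min (adjusted p = 1.2e-32) and fell by 2.60 ± 0.08 from 240 to 400 min (adjusted p = 1.1e-26). At 400 min it stood 0.89 ± 0.12 below 0 min (adjusted p = 4.6e-08); in windows of libraries, where 350 to 400 min spans 443 to 1155, the change was -0.14 and was not called. The fall after 230 min gave an apparent half-life of 58.4 min (95% interval 49.1 to 72.0, 17 libraries), although the level held until 300 min.

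The last rise of each gene passed the midpoint between its low and its peak in this order: ATF3 at 20.1 min, PPP1R15B at 44.5, ATF4 at 150, CHAC1 at 174, PPP1R15A at 176, DDIT4 at 189, DDIT3 at 196, SESN2 at 201, ASNS at 236 and TRIB3 at 269 min. Libraries were 10 min apart, so CHAC1 and PPP1R15A, DDIT4 and DDIT3, and DDIT3 and SESN2 are not separated. The low is the lowest running mean of neighboring libraries at any time before the peak. For PPP1R15A that low, 1844 normalized counts, was at 0 min and not at its later trough at 130 min. Its value is where the later rise crossed the midpoint between the start and the peak. A midpoint of the later rise alone was not computed, so the place of PPP1R15A in this order does not date that rise. ASNS was highest in the last library, at 400 min, so its midpoint depends on where sampling ended. With spike-in size factors the midpoint of PPP1R15B was 80.8 min and that of TRIB3 244 min, and the highest library of 8 genes moved by more than 10 min. Those of DDIT4, DDIT3 and SESN2 were then 197, 199 and 200 min, and PPP1R15A, at 168 min, came before CHAC1, at 178 min.

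**Figure D4:**
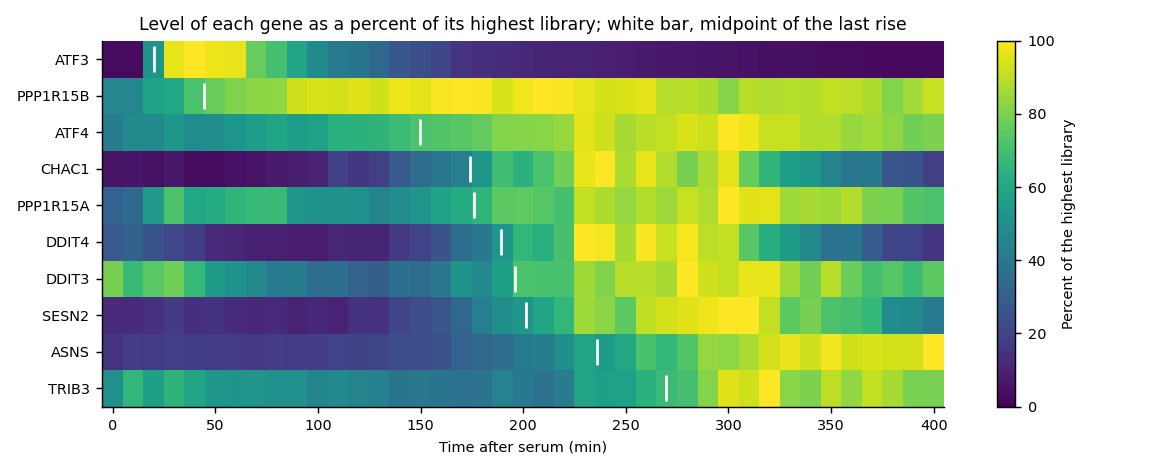
Normalized count as a percent of each gene's highest library (color), by time after serum in min (horizontal axis) for the 10 genes. White bars, which set the order, mark where the last rise passed the midpoint between the gene's low before its peak and the peak. ATF3 is near 100 percent at 30 to 60 min, when CHAC1 and SESN2 are near their lowest.

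Per kb of exon, the starting order was ATF4 (2976 to 3388 normalized counts per kb in the 2 starting libraries), PPP1R15A (509 to 565), DDIT3 (410 to 485), DDIT4 (391 to 437), TRIB3 (279 to 367), PPP1R15B (286 to 287), ASNS (180 to 218), ATF3 (80.2 to 81.4), SESN2 (41.6 to 41.7) and CHAC1 (23.8 to 26.9). DDIT3 and DDIT4 overlapped, as did TRIB3 and PPP1R15B. At 240 to 280 min, ATF4 had a median of 6401 per kb, PPP1R15A 1428 and DDIT4 1380, and ASNS had passed PPP1R15B (797 against 581). CHAC1 had moved from the lowest place to 402 per kb, in a range that overlapped that of TRIB3, and ATF3 was then the lowest at 207.

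Over the 41 libraries, the Pearson correlation of log2(normalized count + 1) with ATF4 was 0.95 for CHAC1, 0.93 for SESN2, 0.89 for ASNS, 0.81 for PPP1R15A, 0.73 for DDIT4, 0.65 for PPP1R15B, 0.49 for DDIT3 and 0.41 for TRIB3, and it was -0.64 for ATF3. Neighboring libraries share the time trend, so these values describe profiles and carry no p. Among 11135 other protein-coding genes with a mean of at least 100 normalized counts, the profiles most like that of ATF3 were NR4A1 (r = 0.99) and EGR3 (0.98), both immediate early transcription factors. RELB (0.99) and SMOX (0.98) were nearest to ATF4, ST3GAL1 and SLC22A23 (both 0.98) to CHAC1, and GARS1, the glycyl-tRNA synthetase, and LMO4 (both 0.996) to ASNS. SLC3A2, the heavy chain of amino acid transporters, and PTX3 (both 0.96) were nearest to SESN2. EDN1 (0.98) and ANKRD1 (0.97) were nearest to PPP1R15B, CTIF (0.94) and SYNDIG1 (0.91) to DDIT4, and ARHGEF2 and YEATS2 (both 0.96) to TRIB3. For PPP1R15A the nearest were CDC42EP2 (0.90) and IRAK2 (0.88), the lowest values of the set. DDIT3 was nearest to ENSG00000285133 (0.97), with which it shares exon bases on the same strand, and then to ZNF627 (0.91).

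Genes around the 10 were taken from lists of the pathway, whose counts are read against the shares of all tested genes. At 120, 240 and 400 min, 13.6%, 21.6% and 24.2% of these were higher, while 6.75%, 18.5% and 22.4% were lower. Of 12 tRNA synthetase genes under ATF4, 0 were called at 60 min, and 7, 10 and 11 were higher at 120, 240 and 400 min, with 0 lower at any of these times. GARS1 rose by a log2 change of 1.74 ± 0.07 at 400 min (edgeR adjusted p = 5.7e-26), TARS1 by 1.59 ± 0.09 and YARS1 by 1.46 ± 0.08. Their median log2 change at 400 min was 0.96, beside -0.0042 over all tested genes.

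Of 10 tested ATF4 targets in amino acid synthesis and folate metabolism, 7 were higher at 240 min and 9 at 400 min, and 0 were lower. The largest changes were MTHFD2, the mitochondrial folate enzyme (2.81 ± 0.07, edgeR adjusted p = 2.0e-33), PSAT1 of serine synthesis (2.44 ± 0.08) and CTH of cysteine synthesis (1.996 ± 0.14), all at 400 min. Of 8 amino acid transporters, 5 were higher and 1 lower at 400 min. SLC7A5 (3.30 ± 0.16) and SLC7A1 (2.32 ± 0.09) rose, and SLC38A2, which amino acid starvation is known to induce, fell by 1.49 ± 0.13 (adjusted p = 5.4e-12), from 61484 to 23811 normalized counts.

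The eIF2 kinases and their regulators act upstream of ATF4. Of 7, 0 were called at 30, 60 or 120 min by edgeR, 2 were lower at 240 min, and at 400 min 2 had risen and 2 had fallen, counts near the shares of all genes. Among these, EIF2AK1, the heme-regulated kinase, fell by 0.36 ± 0.06 at 400 min, EIF2AK2, the kinase that senses double-stranded RNA, fell by 0.33 ± 0.10 at 240 min (adjusted p = 0.0086), and the inhibitor DNAJC3 rose by 0.37 ± 0.12 at 400 min (adjusted p = 0.0068). Of the 8 subunits of eIF2 and of its exchange factor eIF2B, 7 were higher at 400 min, led by EIF2S1, the subunit that the kinases phosphorylate (1.52 ± 0.09, adjusted p = 5.1e-19), EIF2S2 (1.16 ± 0.08) and EIF2B1 (0.81 ± 0.06). Of the 3 PP1 catalytic subunits, PPP1CC rose (0.52 ± 0.07 at 400 min) and the other two were not called.

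**Figure D5:**
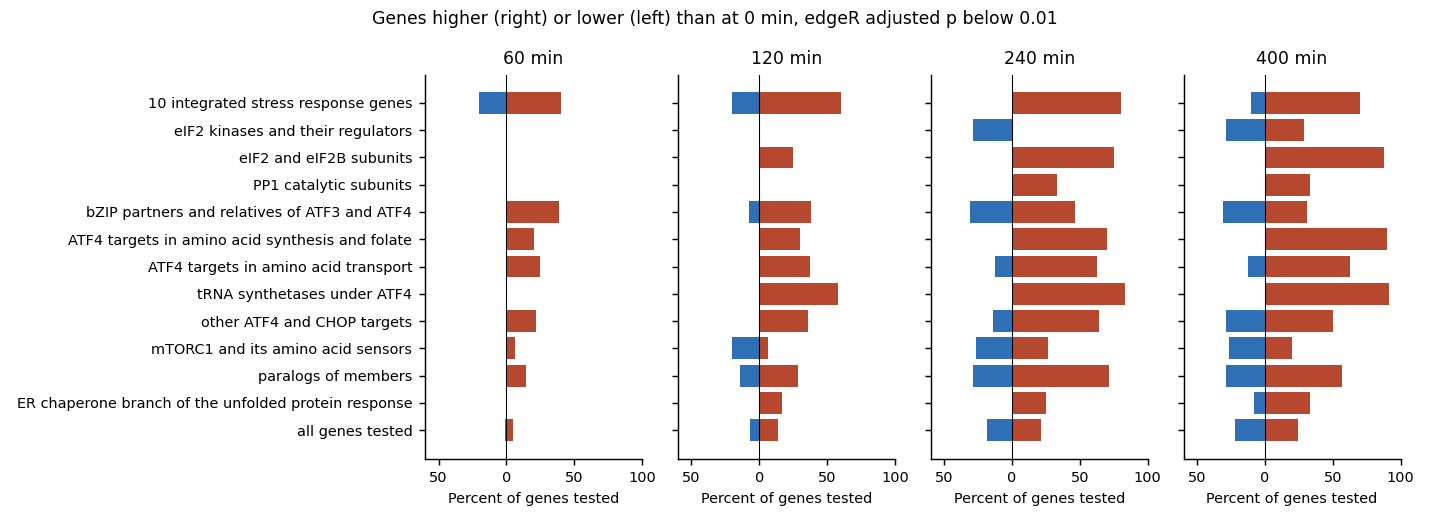
Percent of the tested genes of each list that were higher (right of 0, red) or lower (left of 0, blue) than at 0 min by edgeR at an adjusted p below 0.01, at 60, 120, 240 and 400 min; the bottom bar is all 21629 tested genes. The tRNA synthetases, the amino acid synthesis genes and the eIF2 and eIF2B subunits have no blue bar, and at 400 min 11 of 12, 9 of 10 and 7 of 8 of them are higher.

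Of 13 bZIP partners and relatives of ATF3 and ATF4, 6 were higher and 4 lower at 240 min. JUNB, a partner of ATF3, rose by 4.39 ± 0.24 at 120 min (edgeR adjusted p = 1.5e-17), while CEBPA and CEBPD, of the family that pairs with ATF4, fell by 2.55 ± 0.30 and 2.44 ± 0.15 at 400 min. CEBPA was low throughout, at most 71.6 normalized counts. The other two members of that family on the list, named here after their values were seen, did not follow them. At 0, 120, 240 and 400 min, CEBPG held 782, 1826, 2256 and 2052 normalized counts, and CEBPB held 551, 1142, 1055 and 577. Of 14 other tested targets of ATF4 and CHOP, 7 were higher and 4 lower at 400 min, with STC2, a secreted glycoprotein, at 3.01 ± 0.08, the death receptor TNFRSF10B at 1.19 ± 0.06 and KLHL24 at -3.48 ± 0.14.

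Among paralogs of the 10 genes, 5 of 7 tested were higher and 2 lower at 240 min. TRIB1 had an early rise, 2.81 ± 0.14 at 30 min (edgeR adjusted p = 2.2e-19), when TRIB3 was not called, and TRIB2 fell by 2.39 ± 0.07 at 400 min. SESN3 fell by 2.28 ± 0.19 at 400 min (adjusted p = 5.1e-14), where SESN2 was higher than at 0 min by 1.98 ± 0.15. Of 15 tested genes of mTORC1 and its amino acid sensors, 3 were higher and 4 lower at 400 min, near the 24.2% and 22.4% of all genes. Among them RHEB, which activates mTORC1, rose by 1.27 ± 0.07 and the sensor complex subunit MIOS by 1.27 ± 0.14.

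The chaperone branch of the unfolded protein response, which stress in the endoplasmic reticulum switches on beside ATF4, is a separate arm of that response. The 12 genes listed for it include stress sensors and transcription factors, such as ERN1 and XBP1, as well as chaperones. Of these 12, 3 had risen and 0 fallen by 240 min, and by 400 min 4 had risen and 1 fallen. The shares of all genes were 21.6%, 18.5%, 24.2% and 22.4%, so the share that rose was near that of all genes. ERN1, XBP1 and DNAJB9 rose by 0.98 ± 0.11, 0.87 ± 0.07 and 0.89 ± 0.13 at 400 min, and the median log2 change of the 12 was -0.08 at 240 min.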

How the data were processed

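Reads had been trimmed with cutadapt 1.11 and aligned to GRCh38 with STAR 2.5.2a, and the authors deposited raw counts per gene from featureCounts, summed over exons on the gene's strand; a read that maps to several places or overlaps several genes was counted in each. Their normalized tables were not used. Symbols, positions and exon lengths came from GENCODE release 44, a later release than theirs, which matched 58207 of 58721 genes. The 77 spike-in sequences, 1.14% to 2.17% of counts, were part of the library totals and of the main median-of-ratios size factors, but were not tested as genes. TMM and total-count size factors left them out, and 1 alternative took its size factors from them alone.

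Genes with over 10 counts in 1 library and over 2 in 3 consecutive time points were kept. In edgeR 4.0.16 (R 4.3.3), with median-of-ratios size factors, each gene was fitted with a smooth curve over time (natural cubic spline, 7 df; knots at 20, 40, 60, 100, 160 and 260 min) by quasi-likelihood with robust dispersions, which left 33 residual degrees of freedom. With no replicates, p-values and SEs measure how far single libraries lie from the curve. Each SE was worked back from the test, as the absolute log2 change over the square root of its F statistic. Fitted levels were compared between times at a Benjamini-Hochberg adjusted p below 0.01 over 21629 genes. The pipeline was tested on simulated data. Alternatives used DESeq2 1.42.0, limma 3.58.1, TMM, other filters, knots and windows of neighboring libraries. The 10 genes and the gene lists were chosen with earlier results of these data known, and the motifs after the values were seen. Besides the 10 genes, the text names from each list up to 3 called genes, those that changed most at 30 to 400 min, and the 2 protein-coding genes most correlated with each of the 10 over the 41 libraries; markers are named as a check of the cell line. A half-life was fitted by least squares to the log count after the highest library until it went under 10% of it, where 5 or more libraries qualified and the 400 min level was below 70% of the highest. Promoter sequences are RefSeq's on GRCh38.p14; all 10 genes matched, with 16 windows. Steps after the fit used Python 3.11.15, pandas 2.3.3 and scipy 1.17.1.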

Additional observations from a re-analysis of the deposited data

How the results depend on the processing

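Of 80 fitted changes (10 genes, 8 pairs of times), 58 were called. TMM, a mean count of at least 50, 9 df and DESeq2 changed no call. Spike-in size factors lost 17 calls, windows of time lost 7 and gained 1, and every other setting changed at most 6; in these settings no called change reversed. The cause of these losses was not tested. With spike-ins, genes higher numbered 1 at 30 min, 2 at 60 min, 3 at 120 min and 1 from 60 to 120 min, and genes lower 1 at 60 min, 0 from 60 to 120 min and 4 from 240 to 400 min. Windows left 0 lower at 400 min and 4 from 240 to 400 min. Without the 4 libraries farthest from the curves, 5 genes were higher at 30 min; evenly spaced knots made 1 lower at 30 min; an adjusted p below 0.001 left 1 lower at 60 min; and every second time point left 2 higher from 60 to 120 min. Leaving out 1 library gave 1 to 2 genes lower at 60 min, 3 to 6 higher and 1 to 2 lower at 120 min, and 1 to 2 lower at 400 min. For DDIT3 at 60 min, leaving out 1 library gave -0.54 to 0.18 (-0.47 with all 41); 0.18, not called, was without the 0 min library, where the curve is extrapolated. All 10 genes also passed the Ljung–Box test on log2(normalized count + 1).

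The highest library moved with spike-ins from 300 to 230 min for ATF4, to 260 min for DDIT3, DDIT4, CHAC1, SESN2 and PPP1R15A, and to 400 min for TRIB3 and PPP1R15B, and with a running mean of 3 libraries to 270 min for DDIT4. By Spearman's rho, 8 of the 20 genes named as most alike stayed among the 2 nearest. Depth limits CHAC1 most, at 29.5 to 64.8 normalized counts up to 60 min. No paired analysis was possible because each time point has 1 library.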
